A study of Mus musculus with 6 samples.

Results

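The collagen genes of the mouse were followed in colon of Islr knockout and control animals after chemical colitis. All genes whose symbol reads Col, a number, a and a number were taken, named through the RefSeq accession of each probe, which gave 44 of the 23462 named genes on the array and 70 of its 56605 probes. They comprise 11 fibrillar collagens, 6 basement membrane collagens, 9 FACIT collagens (fibril-associated collagens with interrupted triple helices) and 18 others. The basement membrane group holds type IV chains only. Colon was taken from 3 control and 3 Islr knockout male mice, with 1 single-colour Agilent array for each animal. Both groups shared the same exposure: the sample source names 3.5% DSS (dextran sulfate sodium, which injures colonic epithelium) in the water for 5 days and 1 day of recovery, whereas the treatment field states no treatment. Strain, age, the knockout allele and the cells in which Islr was removed are not given in the sources used here.

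Collagens are trimeric proteins of the extracellular matrix whose chains wind into a triple helix built on regularly spaced glycine. Fibrillar collagens form the tensile fibres of submucosa and scar, type IV chains form the sheet under epithelium and around vessels and muscle, and FACIT chains sit on the surface of fibrils. In the intestine fibroblasts and smooth muscle cells make most fibrillar collagen, and the laying down and breakdown of matrix are part of repair after colitis. Islr is a secreted leucine-rich repeat protein of stromal cells.

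Signals are log2 values of the processed signal relative to the 75th percentile of the same array, so 0 is that percentile. Values on 3 arrays are always given in the order of replicates 1, 2 and 3, and differences are knockout minus control. Islr read 1.57, 1.24 and 1.21 in controls and -1.40, -0.93 and -1.31 in knockouts, so every knockout array was below every control array. All 8 tested epithelial markers of the colon, among them Krt8 and Vil1, were well above background on all 6 arrays. The 75th percentile of the raw signal was 6353 to 7110 in controls and 4910 to 5820 in knockouts, and knockout replicate 1 was the dimmest array and had the most outlier spots (16.0%). The spot was an outlier, and treated as missing, in 30 of 420 collagen values, 10 of them in control replicate 1 and 8 in knockout replicate 1. Each genotype filled a slide row of its own, so row and genotype cannot be told apart.

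Promoter windows are printed for the 3 collagen genes that passed the test below and for Col4a1 and Col4a2, whose start sites lie 21 bases apart on opposite strands. Each window of 300 bases spans the start site and is written 5′ to 3′ on the strand of the gene, from RefSeq with build GRCm38.p6. The promoter table used here gave 38 windows for 35 of the 44 collagen genes. Capitals mark matches on either strand. The motifs searched were the CCAAT box, the GC box with the letters GGGCGG, the TATA box with the letters TATAAA, the core of a TEAD site with the letters GGAATG and the AP-1 site with the letters TGANTCA. Col18a1 has 2 windows.
Col5a3, chr9:20815018-20815317 (minus strand): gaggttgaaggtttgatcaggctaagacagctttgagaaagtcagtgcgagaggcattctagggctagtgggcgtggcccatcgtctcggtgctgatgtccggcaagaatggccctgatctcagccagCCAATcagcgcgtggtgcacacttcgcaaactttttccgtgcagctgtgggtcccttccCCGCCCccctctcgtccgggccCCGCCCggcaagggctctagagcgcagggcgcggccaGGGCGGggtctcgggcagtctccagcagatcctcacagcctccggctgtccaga
Col18a1, chr10:77113656-77113955 (minus strand): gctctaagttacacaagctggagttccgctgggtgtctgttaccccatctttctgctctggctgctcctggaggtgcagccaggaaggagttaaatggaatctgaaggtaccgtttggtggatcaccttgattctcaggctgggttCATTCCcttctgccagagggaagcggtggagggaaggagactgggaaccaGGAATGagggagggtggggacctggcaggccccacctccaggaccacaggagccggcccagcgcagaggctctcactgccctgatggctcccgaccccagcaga
Col18a1, chr10:77166481-77166780 (minus strand): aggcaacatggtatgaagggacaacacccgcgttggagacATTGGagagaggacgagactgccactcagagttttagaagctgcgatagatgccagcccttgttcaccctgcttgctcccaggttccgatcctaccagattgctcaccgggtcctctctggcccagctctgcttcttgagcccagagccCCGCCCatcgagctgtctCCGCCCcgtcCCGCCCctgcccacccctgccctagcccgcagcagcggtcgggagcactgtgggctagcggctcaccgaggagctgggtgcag
Col28a1, chr6:8192568-8192867 (minus strand): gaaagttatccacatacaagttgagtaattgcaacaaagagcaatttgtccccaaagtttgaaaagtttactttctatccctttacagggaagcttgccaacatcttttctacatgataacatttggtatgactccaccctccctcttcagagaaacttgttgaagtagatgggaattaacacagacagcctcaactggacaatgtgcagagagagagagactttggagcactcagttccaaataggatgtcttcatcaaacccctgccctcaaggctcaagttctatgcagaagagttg
Col4a1, chr8:11312777-11313076 (minus strand): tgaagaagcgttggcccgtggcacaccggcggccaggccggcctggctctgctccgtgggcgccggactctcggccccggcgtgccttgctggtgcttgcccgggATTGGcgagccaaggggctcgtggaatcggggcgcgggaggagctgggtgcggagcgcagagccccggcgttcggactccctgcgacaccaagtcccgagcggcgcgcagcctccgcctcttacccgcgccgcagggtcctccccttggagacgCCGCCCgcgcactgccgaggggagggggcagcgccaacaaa
Col4a2, chr8:11312555-11312854 (plus strand): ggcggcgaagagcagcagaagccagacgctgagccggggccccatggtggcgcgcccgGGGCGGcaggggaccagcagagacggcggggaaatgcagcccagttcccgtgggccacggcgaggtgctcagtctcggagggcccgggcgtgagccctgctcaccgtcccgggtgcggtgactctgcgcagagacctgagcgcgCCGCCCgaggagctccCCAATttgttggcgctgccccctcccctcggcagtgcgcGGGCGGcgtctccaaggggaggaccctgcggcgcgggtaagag

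The windows of Col4a1 and Col4a2 share 78 bases. The window of Col5a3 holds 4 matches, a CCAAT box and 3 GC boxes. The upstream window of Col18a1 (the second of its pair above) also holds 4, a CCAAT box and 3 GC boxes, and its other window holds a TEAD core on each strand. None of these letters occurs in the Col28a1 window. Col4a1 has a CCAAT box and a GC box, and Col4a2 a CCAAT box and 3 GC boxes. A GC box occurs in 35.7% of all 32851 windows and in 23 of 38 collagen windows (60.5%). The shares were 37.4% of all and 34.2% of collagen windows for the CCAAT box, 13.6% and 13.2% for the TATA box, 14.7% and 13.2% for the TEAD core and 7.81% and 2.63% for the AP-1 site. No motif overlapped another in the windows printed. A match is a run of letters, and binding was not measured.

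The mean signal was lower in knockout colon for most tested fibrillar and other collagens. Col15a1 and Col18a1, collagens of basement membranes that are counted with the others, were lower at their brightest tested probes. Tested genes of the basement membrane group (type IV chains) and the FACIT group went both ways. In these last groups Col4a2 and the bright Col12a1 probe were untested because of outlier spots. With those spots kept, every knockout lay below every control at both. Of 44 genes 38 could be tested, and 3 fell at a 5% false discovery rate in limma: Col5a3, Col18a1 and Col28a1. None rose. Across all 16451 tested genes 3.82% were called, and 2.47% were called lower. By probe, 3 of 52 tested collagen probes were called, against 3.97% of all tested probes (2.42% lower). The mean was lower in the knockout for 29 of the 38 genes, against 48.8% of all tested genes, and the median difference was -0.70, against 0.01. With the filter on all 6 arrays the mean was lower for 26 of 35 collagen genes, with a median of -0.72. Every knockout value lay below every control value for 20 of the 38 (20.7% of all genes), and every one lay above for 2 (20.3% of all genes). A difference of at least 2-fold lower was seen for 12 (6.41% of all genes), and 17 were lower at an unadjusted p under 0.05 (14.5% of all genes). In whole colon, fewer cells of a type and less RNA per cell cannot be told apart.

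Knockout replicate 1 was the lowest knockout array for 34 of the 38 genes, and without it the median was -0.47, with 26 of 37 genes lower and 3 called. The median deviation of the 38 genes from their control means was -1.15 in knockout replicate 1, -0.35 in replicate 2 and -0.40 in replicate 3, and between -0.12 and 0.15 in the controls. The number of calls was 0 without control replicate 2, control replicate 3 or knockout replicate 3. In those fits 15 of 34, 11 of 33 and 16 of 34 collagen genes had an unadjusted limma p under 0.05 in either direction. With all 6 arrays 19 of 38 collagen genes and 4637 of all 16451 tested genes reached that p. Counts of group and marker genes at this p given below are to be read beside that share. The share of all genes with an array left out is not given here.

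**Figure D1:**
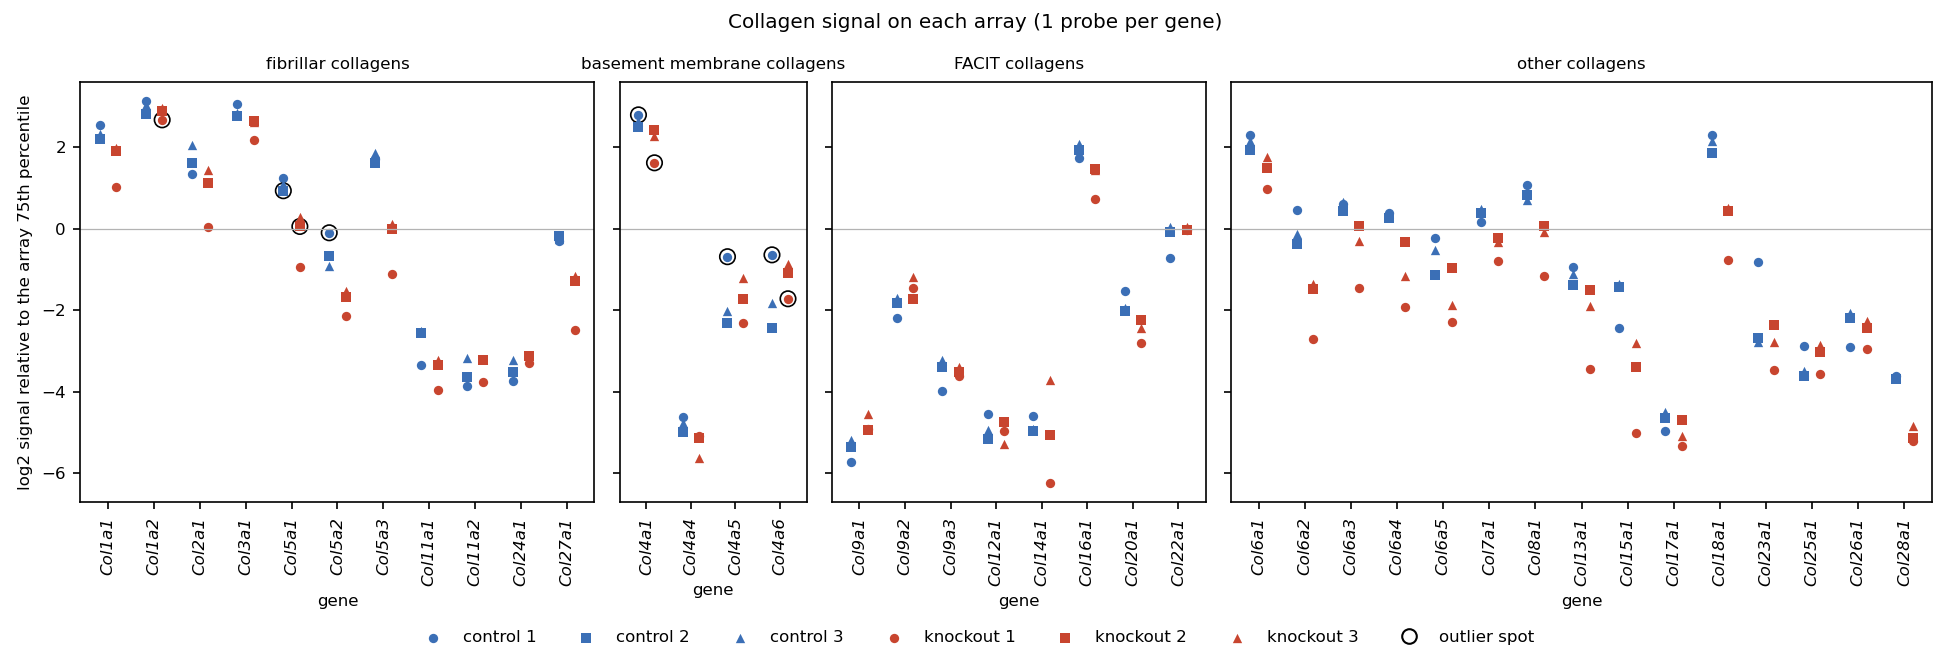
Scaled log2 signal, with 0 at the 75th percentile (y axis), for the 38 tested collagen genes (x axis), 1 probe per gene, in 4 panels by collagen group. Each symbol is 1 animal (blue, control; red, knockout; the shape gives the replicate), and black rings mark outlier spots, which were left out of the tests. Knockout replicate 1 (red circles) is the lowest knockout array for 34 genes.

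All 11 fibrillar genes were tested, and 9 had a lower mean in the knockout, with a median difference of -0.73 (-0.40 without knockout replicate 1). Col5a3 was the 1 member called. It encodes the third chain of type V collagen, a minor component that helps start and regulate fibrils. Col5a3 read 1.70, 1.61 and 1.86 in controls and -1.12, -0.01 and 0.11 in knockouts. Its fall was 4.20-fold, with a log2 difference of -2.07 (SE 0.34, adjusted p 0.0357). The groups were separated by a wide gap, and the call was lost without control replicate 2, control replicate 3 or knockout replicate 3 (adjusted p 0.0924, 0.0978 and 0.0730) and with no filter on dim probes (0.0557).

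The partner chains of type V collagen lay in the same direction without passing. Col5a1, its main chain, read 1.23, 0.93 and 1.096 in controls and -0.93, 0.05 and 0.28 in knockouts. With the outlier spots of control replicate 2 and knockout replicate 2 left out, the difference was -1.49 (SE 0.44, adjusted p 0.121). Col5a2 read -0.10 (an outlier spot), -0.68 and -0.93 in controls and -2.14, -1.67 and -1.54 in knockouts, a difference of -0.98 (SE 0.24, adjusted p 0.0789). In both genes all knockouts lay below all controls.

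The major fibrillar chains showed smaller differences. Type I collagen, the main fibre of connective tissue, is built of Col1a1 and Col1a2 chains, and type III, made from Col3a1, accompanies it in distensible tissue such as gut. Col1a1 read 2.55, 2.19 and 2.33 in controls and 1.01, 1.91 and 1.97 in knockouts (difference -0.73, SE 0.29, adjusted p 0.165; -0.42 without knockout replicate 1). The other Col1a1 probes differed by -0.73 and -1.01 (adjusted p 0.191 and 0.240), and with outlier spots kept all knockouts lay below all controls at each of the 3 probes. Col1a2 read 3.14, 2.81 and 3.03 in controls and 2.67 (an outlier spot), 2.88 and 2.95 in knockouts, and the groups overlapped (difference -0.078, SE 0.19, adjusted p 0.819). Col3a1 read 3.05, 2.76 and 2.83 in controls and 2.16, 2.63 and 2.61 in knockouts, so the groups did not overlap, yet the difference was -0.41 (SE 0.19, adjusted p 0.221; -0.26 without knockout replicate 1).

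Col27a1, a fibrillar chain best known from cartilage, read -0.31, -0.17 and -0.26 in controls and -2.50, -1.27 and -1.17 in knockouts, a tight control group above every knockout (difference -1.40, SE 0.36, adjusted p 0.0725). It passed under median centring (adjusted p 0.0456), normexp with quantile normalization (0.0404) and array weights (0.0185). Col2a1, the main fibrillar chain of cartilage, read 1.35, 1.62 and 2.04 in controls and 0.05, 1.13 and 1.45 in knockouts, with overlap (difference -0.79, SE 0.39, adjusted p 0.243). Without knockout replicate 1 the difference was -0.38. Of 8 cartilage markers 5 were tested, all well above background on all 6 arrays, 3 with a higher and 2 with a lower mean and none called (1 had an unadjusted p under 0.05), and 2 of the 8 were well above background on no array. The summed level of the list was 1.38 to 2.83 times the 75th percentile in controls and 4.32 to 5.21 times in knockouts. Its brightest tested member was Sox9 (difference 1.52, adjusted p 0.0649), which colonic epithelium also expresses. Sox9 had means of 0.58 in controls and 2.10 in knockouts. The next brightest tested member, Hapln1, had means of -2.28 and -3.06, so the rise of the sum is not one of the tested list as a whole. The part of the list in the Col2a1 value was not tested.

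The remaining fibrillar chains gave weak signals. Col11a1, a regulator of fibril width, read -3.35, -2.57 and -2.51 in controls and -3.96, -3.34 and -3.23 in knockouts. Control replicate 1 fell among the knockouts (difference -0.70, SE 0.30, adjusted p 0.200). A dimmer probe of Col11a1 differed by -0.31 (adjusted p 0.375). Col11a2, its partner chain, read -3.85, -3.64 and -3.17 in controls and -3.77, -3.22 and -3.20 in knockouts and overlapped throughout (difference 0.16, SE 0.25, adjusted p 0.722). Col24a1 read -3.74, -3.52 and -3.21 in controls and -3.29, -3.13 and -3.20 in knockouts at the probe of one transcript (difference 0.28, SE 0.18, adjusted p 0.354). A dimmer Col24a1 probe, for another transcript, differed by -1.37 (SE 0.46, adjusted p 0.121), so the probes of this gene disagreed in sign. Only the controls admitted this dimmer probe to the test, because the knockouts did not all clear background at it.

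**Figure D2:**
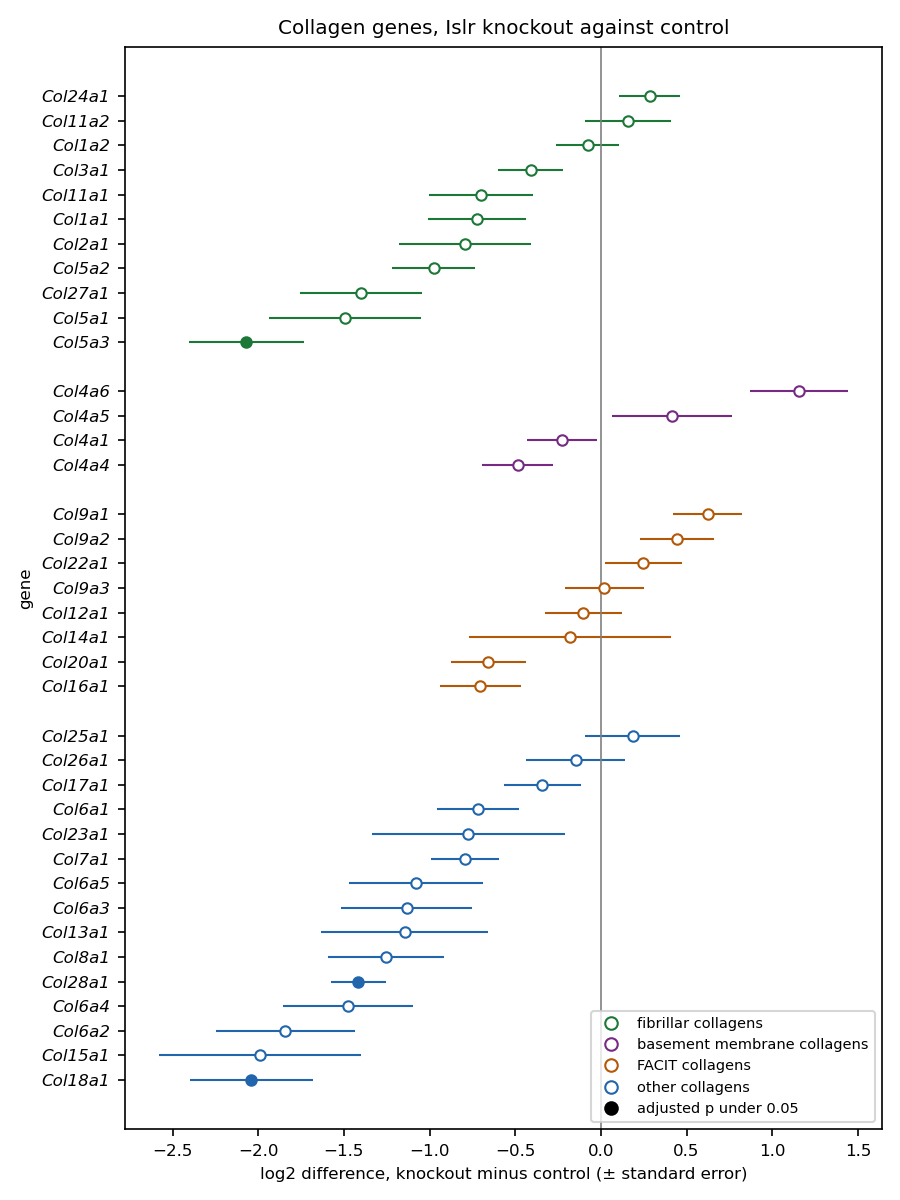
Log2 difference, knockout minus control (x axis), for each tested collagen gene (y axis), with bars of 1 standard error; colours give the collagen group and filled points passed an adjusted p of 0.05. The filled points are Col5a3 at -2.07, Col18a1 at -2.04 and Col28a1 at -1.42. Genes of the basement membrane group (type IV chains) and the FACIT group lie on both sides of 0.

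Of 6 basement membrane genes 4 were tested, 2 with a lower and 2 with a higher mean, none was called in limma, and 1 had an unadjusted p under 0.05. Their median difference was 0.094, and it turned to -0.49 over 5 genes with outlier spots kept. It also turned without control replicate 2 or 3 (-0.59 and -0.48, with 1 gene testable) and without knockout replicate 2 or 3 (-0.081 and -0.084, with 2 genes testable), and it was 0.41 over 3 genes with the filter on all 6 arrays. Type IV collagen of all basement membranes is built of Col4a1 and Col4a2 chains. Col4a1 read 2.79 (an outlier spot), 2.50 and 2.65 in controls and 1.62 (an outlier spot), 2.41 and 2.28 in knockouts, a difference of -0.23 (SE 0.20, adjusted p 0.527) on the usable spots and of -0.54 with all spots (adjusted p 0.203). Col4a2 could not be tested, as all 3 knockout spots were outliers. It read 2.79 (also an outlier spot), 2.56 and 2.75 in controls and 1.32, 2.14 and 2.21 in knockouts, so with these spots kept every knockout lay below every control at both genes (Col4a2 difference -0.81, adjusted p 0.108).

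The other type IV chains are restricted to certain membranes. Col4a5 and Col4a6, which together form the network found around smooth muscle, lie next to each other on chromosome X. Col4a5 read -0.69 (an outlier spot), -2.32 and -2.03 in controls and -2.33, -1.73 and -1.22 in knockouts (difference 0.41, SE 0.35, adjusted p 0.491; -0.081 with the outlier spot kept, 0.70 without knockout replicate 1 and 0.14 without knockout replicate 3), and its other probe, with 1 usable control spot, differed by -0.20 with all spots kept (adjusted p 0.776). Col4a6 read -0.64 (an outlier spot), -2.44 and -1.83 in controls and -1.72 (an outlier spot), -1.09 and -0.87 in knockouts. Its difference of 1.16 (SE 0.28, adjusted p 0.0902) was the largest upward value of any collagen gene and rested on 2 arrays per group, and it was 0.41 with all spots (adjusted p 0.605). Smooth muscle markers were higher in the same knockouts: all 8 tested had a higher mean, among them the contractile proteins Acta2 (0.34) and Myh11 (0.36), with a summed level of 54.8 to 67.5 times the 75th percentile in controls and 73.9 to 85.8 times in knockouts, none was called (2 had an unadjusted p under 0.05), and their part in these values was not tested. Col4a3 was not well above background on any array. Col4a4 was well above it on all control and 2 knockout arrays and differed by -0.49 (SE 0.21, adjusted p 0.193; -0.31 without knockout replicate 3).

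Of 9 FACIT genes 8 were tested, 4 lower and 4 higher, with a median of -0.042, which turned to 0.023 when control replicate 3 was left out and to 0.17 when knockout replicate 1 was. None was called in limma, and 3 had an unadjusted p under 0.05. The lowest values were those of Col16a1 and Col20a1. Col16a1, a chain that links fibrils to cells, read 1.73, 1.94 and 2.07 in controls and 0.74, 1.46 and 1.44 in knockouts, below every control (difference -0.70, SE 0.24, adjusted p 0.122; -0.47 without knockout replicate 1), while its dimmer probe differed by 0.28. Col20a1 read -1.54, -2.03 and -1.94 in controls and -2.80, -2.23 and -2.45 in knockouts, again without overlap (difference -0.66, SE 0.22, adjusted p 0.118).

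The highest differences of the group were those of Col9a1 and Col9a2, chains of type IX collagen, which is known mainly from cartilage. Col9a1 read -5.72, -5.36 and -5.19 in controls and -4.91, -4.93 and -4.55 in knockouts, above every control (difference 0.62, SE 0.20, adjusted p 0.113). Col9a2 read -2.20, -1.82 and -1.70 in controls and -1.46, -1.74 and -1.18 in knockouts with a small overlap (difference 0.45, SE 0.22, adjusted p 0.239), and Col9a3 differed by 0.020 (SE 0.23). Col12a1, which binds type I fibrils under tension, was bright at a probe with 1 usable control spot and no usable knockout spot, so its test fell to a dim probe (difference -0.10, adjusted p 0.802). The bright Col12a1 probe read 1.81, 1.67 and 1.76 in controls and -0.52, 0.84 and 0.68 in knockouts with outlier spots kept, a difference of -1.41 (adjusted p 0.0690) with every knockout below every control. Col14a1 differed by -0.18 (SE 0.59) with knockout values of -6.25, -5.06 and -3.71 that spanned the controls. Col22a1, a collagen of tissue junctions, differed by 0.25 at its brighter probe and by -1.54 (SE 0.37, adjusted p 0.0653) at the other. That dimmer Col22a1 probe qualified by its controls only, since the knockouts did not all clear background there. Col19a1 was not well above background on any array.

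Of the 18 other collagens 15 were tested, 14 of them with a lower mean in the knockout, and the median was -1.13 (-0.69 without knockout replicate 1). Every knockout lay below every control for 10 of the 15. The calls were Col18a1 and Col28a1. Col18a1 is a basement membrane zone collagen of vessels and epithelium, whose C-terminal end is released as endostatin. It read 2.29, 1.85 and 2.14 in controls and -0.77, 0.42 and 0.50 in knockouts. It fell by 2.04 (SE 0.36, adjusted p 0.0401), a 4.11-fold lower signal, and the call was lost in 4 of the 6 fits that left out an array, those without control replicate 1, 2 or 3 or knockout replicate 3 (adjusted p 0.0536, 0.0944, 0.106 and 0.0809), and with no filter on dim probes (0.0623).

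Col15a1, the close relative of Col18a1 and likewise a collagen of vessel and muscle basement membranes, read -2.44, -1.44 and -1.37 in controls and -5.01, -3.40 and -2.81 in knockouts, all below the controls. The difference was -1.99 (SE 0.59, adjusted p 0.0955), and a dimmer probe differed by 0.35 (adjusted p 0.573). Endothelial markers were also lower: all 9 tested had a lower mean, 8 with every knockout below every control, and their summed level was 17.3 to 18.8 times the 75th percentile in controls and 5.28 to 12.5 times in knockouts. Pecam1 differed by -1.70 (SE 0.39, adjusted p 0.0602). No endothelial marker was called in limma, 7 had an unadjusted p under 0.05, and their part in the collagen values was not tested.

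Col28a1, a beaded collagen best known around glial cells of peripheral nerves, read -3.63, -3.69 and -3.63 in controls and -5.22, -5.14 and -4.84 in knockouts. It fell by 1.42 (SE 0.16, adjusted p 0.0218), a 2.67-fold lower signal (0.94 on the log2 scale under normexp with quantile normalization). Both groups were tight, all values were well above background, and the call was lost without control replicate 2, control replicate 3 or knockout replicate 3 (adjusted p 0.0727, 0.0661 and 0.0555). Its second probe was not well above background on any array. Of 8 tested markers of enteric glia and neurons 7 had a lower mean and none was called (2 had an unadjusted p under 0.05). Among them Sox10, a glial transcription factor, differed by -0.79 (SE 0.18, adjusted p 0.0603), and single markers ranged up to 0.38, the value of Snap25 of neurons. The summed level of that list was 20.5 to 23.0 times the 75th percentile in controls and 19.7 to 20.3 times in knockouts, and its part in the Col28a1 value was not tested.

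Type VI collagen forms beaded filaments around cells from Col6a1 and Col6a2 chains with Col6a3 or one of its relatives. Col6a1 read 2.31, 1.92 and 2.14 in controls and 0.97, 1.48 and 1.76 in knockouts (difference -0.72, SE 0.24, adjusted p 0.119). Col6a2 read 0.45, -0.37 and -0.12 in controls and -2.71, -1.49 and -1.36 in knockouts (difference -1.84, SE 0.40, adjusted p 0.0559), and its other probe differed by -1.30 (adjusted p 0.0596). Both Col6a2 probes missed the threshold narrowly, and the other probe passed with outlier spots kept (difference -1.45, adjusted p 0.0351). Col6a3 differed by -1.13 (SE 0.38, adjusted p 0.121; -0.69 without knockout replicate 1), Col6a4 by -1.48 (SE 0.38, adjusted p 0.0739) and Col6a5 by -1.08 (SE 0.39, adjusted p 0.140). Thus all 5 tested type VI chains had lower means, and at the probes that stand for them the groups overlapped only at Col6a5. A dimmer Col6a5 probe differed by -1.31 (adjusted p 0.114) without overlap. A brighter Col6a3 probe was untested because of outlier spots, and with those spots kept it differed by -1.19 (adjusted p 0.0941). Col6a6 was well above background on 1 array and was not tested.

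Among the remaining members, Col7a1, the anchoring fibril under stratified epithelium, read 0.17, 0.39 and 0.48 in controls and -0.79, -0.23 and -0.32 in knockouts, below every control (difference -0.79, SE 0.20, adjusted p 0.0711). Col8a1, a network collagen of vessel walls, read 1.07, 0.82 and 0.69 in controls and -1.16, 0.07 and -0.08 in knockouts, also without overlap (difference -1.25, SE 0.34, adjusted p 0.0803). Its partner Col8a2 had 1 usable knockout spot and was not tested, with a difference of 0.45 when outlier spots were kept (adjusted p 0.345). Among the transmembrane collagens Col13a1 differed by -1.15 (SE 0.49, adjusted p 0.191), or by -0.57 without knockout replicate 1. Its dimmer probe differed by -0.35 (adjusted p 0.272), with overlap. Col23a1 differed by -0.77 (SE 0.57), or by -0.14 without control replicate 1 and -0.48 without knockout replicate 1. A dimmer Col23a1 probe differed by -0.43 (adjusted p 0.561). Col17a1 differed by -0.34 (SE 0.22). The other Col17a1 probe differed by -0.86 (adjusted p 0.211), and both Col17a1 probes were well above background on 2 of 3 knockout arrays. Col25a1, also a transmembrane chain, read -2.88, -3.62 and -3.50 in controls and -3.56, -3.03 and -2.85 in knockouts, with overlap and the highest difference of these 15 genes (0.19, SE 0.28, adjusted p 0.702). Col26a1 read -2.91, -2.20 and -2.08 in controls and -2.94, -2.43 and -2.26 in knockouts, and again the groups overlapped (difference -0.15, SE 0.29, adjusted p 0.777). Its dimmer probes differed by 0.083 and 0.26 (adjusted p 0.947 and 0.802), so the probes of Col26a1 disagreed in sign. Col10a1, of growth plate cartilage, was not well above background on any array.

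Chains that assemble in one molecule were compared within each array for 4 pairs. The within-array difference between the probes of Col1a1 and Col1a2 was -0.59, -0.62 and -0.70 in controls and -1.66, -0.96 and -0.99 in knockouts, lower in every knockout, with outlier spots kept. That between Col6a1 and Col6a2 was 1.85, 2.29 and 2.26 in controls and 3.68, 2.97 and 3.13 in knockouts, higher in every knockout. For Col4a1 and Col4a2 it was -0.00, -0.064 and -0.10 in controls and 0.29, 0.28 and 0.07 in knockouts, likewise higher in every knockout and resting on outlier spots in all 3. The pair Col5a1 and Col5a2 overlapped, with a shift of -0.076. The exact two-sided permutation test gave p = 0.1 for the first 3 pairs, the smallest value that 3 against 3 animals allow, and 0.8 for the last, or 0.133 and 0.8 after Benjamini-Hochberg adjustment over the 4 pairs. No pair could pass a threshold of 0.05 in this design, and the levels of different probes are not compared.

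**Figure D3:**
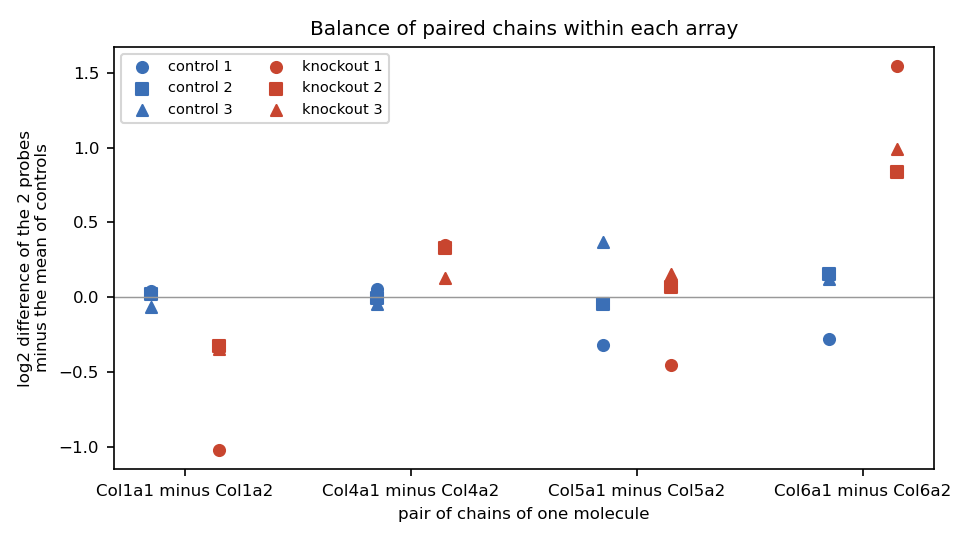
Within-array log2 difference between the probes of paired chains, minus the mean of the controls (y axis), for 4 pairs (x axis); each symbol is 1 animal, blue for control and red for knockout. Knockouts lie below the controls for Col1a1 minus Col1a2, above them for Col4a1 minus Col4a2 and for Col6a1 minus Col6a2, and among them for Col5a1 minus Col5a2.

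Genes that make, process, bind and degrade collagen, or inhibit its degradation, were examined from 4 lists of 61 genes. Of these 56 were tested, 9 fell and none rose, against 2.47% of all genes called lower. In collagen biosynthesis 17 of 19 had a lower mean, with a median of -0.63, and the 1 call was Crtap, a member of the complex that hydroxylates prolines in new chains (difference -1.03, SE 0.20, adjusted p 0.0468). Other, dimmer probes of P3h1 (-1.71, adjusted p 0.0300), Plod3 (-0.96, adjusted p 0.0457) and P4ha1 (-0.89, adjusted p 0.0441) were also called. These enzymes hydroxylate prolines or lysines, and the count depends on the probe that stands for a gene. At its brightest tested probe P3h1 differed by only -0.019 (adjusted p 0.958), so its probes disagreed. Plod3 and P4ha1 both differed by -0.63 at theirs (adjusted p 0.0626 and 0.0657). The knockout means of these probes were -4.39, -4.46 and -1.60. Plod1, a lysyl hydroxylase, and Fkbp10, a collagen chaperone, came close (-0.89 and -0.93, adjusted p 0.0519 and 0.0530). Serpinh1, the collagen chaperone HSP47, differed by -0.28 and the proline hydroxylase subunit P4hb by -0.064. Creb3l1, a transcription factor of secretory cells, differed by 1.02 the other way (adjusted p 0.0914).

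In procollagen processing and crosslinking 16 of 18 were lower, with a median of -0.79 and 3 calls. These were Lox (-3.16, SE 0.38, adjusted p 0.0236) and Loxl1 (-1.53, SE 0.29, adjusted p 0.0437), enzymes that crosslink collagen and elastin, and Adamts14 (-1.88, SE 0.29, adjusted p 0.0329), which trims the N-terminal end of procollagens. Adamts14 read -0.49, -0.84 and -0.51 in controls and -3.12, -2.10 and -2.27 in knockouts. Its relative Adamts2, the main enzyme of that step, differed by -0.86 (adjusted p 0.0914) and Bmp1, which trims the C-terminal end, by -0.52 (adjusted p 0.125) at its brightest tested probe and by -1.21 (adjusted p 0.0441) at another. Further called probes that do not stand for their gene were those of Loxl4 (-1.84, adjusted p 0.0441), Tll1 (-1.57, adjusted p 0.0488), Adamts14 (-1.12, adjusted p 0.0446) and Lox (-4.28, adjusted p 0.0468). At its brightest tested probe Tll1 differed by only -0.15 (adjusted p 0.696), so its probes disagreed. Their knockout means were -4.37, -4.69, -2.95 and -5.07, and the number of knockout arrays well above background at these probes is not given here. Sparc and Fn1, which take part in fibril assembly, differed by -0.26 and -0.032.

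Among collagen degradation genes 7 of 8 tested were lower, with a median of -2.03, and 5 were called lower: Mmp14 (-2.07, adjusted p 0.0233), a membrane collagenase, Mmp2 (-1.99, adjusted p 0.0335) and Mmp9 (-2.86, adjusted p 0.0468), gelatinases, Mmp8 (-3.85, adjusted p 0.0171), a collagenase of neutrophils, and Ctsk (-1.74, adjusted p 0.0486), a lysosomal collagenase. The list also holds Timp1 (-2.23, adjusted p 0.112) and Timp2 (-0.28), inhibitors of metalloproteinases, and both count among the 7 lower. Mmp8 and Mmp9 were well above background on 2 of 3 knockout arrays and entered the test through the controls alone. With the filter on all 6 arrays the machinery calls numbered 7. Neutrophil markers, a list that shares Mmp8, went both ways: 6 of 8 tested were lower and called, and 2 were higher. Besides Mmp8 the lower ones were the granule proteins S100a8 (-3.92), S100a9 (-3.73) and Camp (-1.20), the chemokine receptor Cxcr2 (-1.93) and Retnlg (-4.47). Ltf, an antimicrobial protein also made by epithelium, rose by 3.66 (adjusted p 0.0299). Csf3r differed by 0.17 (adjusted p 0.483), with every knockout above every control. The summed level of that list was 24.4 to 26.2 times the 75th percentile in controls and 17.4 to 19.5 times in knockouts, and its part was not tested. Of 11 collagen receptors 9 were lower and none was called in limma, with 5 at an unadjusted p under 0.05. The uptake receptor Mrc2 differed by -1.36 (adjusted p 0.0900), Ddr2 of stromal cells by -0.61 (adjusted p 0.139) and Ddr1 of epithelial cells by 0.70 (adjusted p 0.0913). Without control replicate 2, control replicate 3 or knockout replicate 3 the machinery calls numbered 0, 1 and 1, and 4 without knockout replicate 1.

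**Figure D4:**
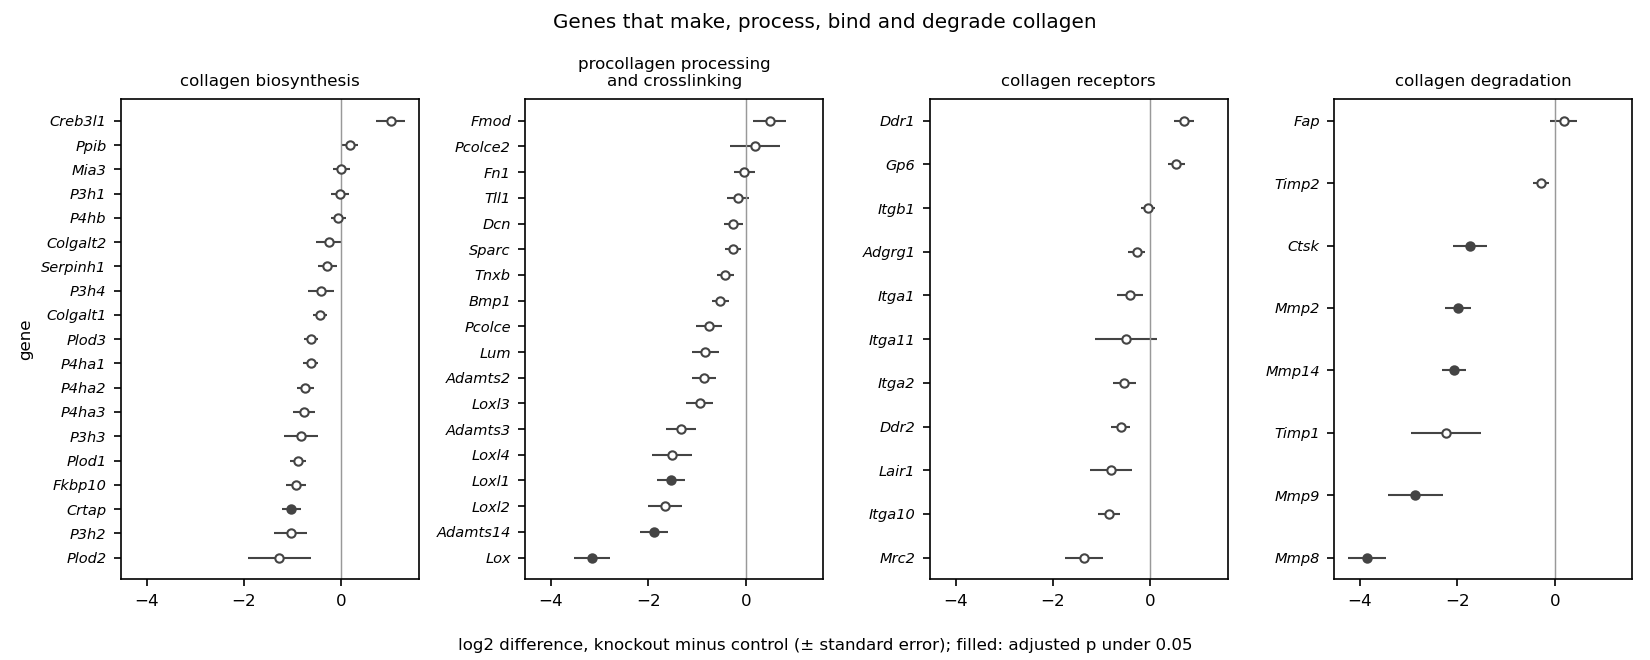
Log2 difference, knockout minus control (x axis), with bars of 1 standard error, for genes (y axis) in 4 lists of collagen biosynthesis, processing, receptors and degradation. The degradation list includes the inhibitors Timp1 and Timp2. Filled points passed an adjusted p of 0.05. Lox at -3.16 and Mmp8 at -3.85 are the lowest points of their lists, and no filled point lies above 0.

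Markers of other cell types were read beside the collagen genes. Of 10 tested fibroblast markers 9 had a lower mean, with a median of -0.46, and the 1 call was Pdgfrb (-1.17, SE 0.20, adjusted p 0.0395), a receptor of pericytes and fibroblasts. Pdgfra, the stromal receptor of the same family, differed by -0.63 (adjusted p 0.128) at a probe well above background on 2 of 3 knockout arrays. The summed level of the list was 42.4 to 46.4 times the 75th percentile in controls and 24.2 to 34.0 times in knockouts. Epithelial markers lay the other way, with 8 of 8 tested higher (Krt8 0.68), none called (2 had an unadjusted p under 0.05) and a summed level of 20.9 to 66.6 times in controls and 80.4 to 104.9 times in knockouts. Macrophage markers had a lower mean in 7 of 8 tested, none called (4 had an unadjusted p under 0.05; Cd68 -0.88, Csf1r -0.37), with summed levels of 29.2 to 38.2 times and 22.5 to 28.4 times. Of 9 tested skeletal muscle markers 7 had a higher and 2 a lower mean, with summed levels of 1.998 to 2.62 times and 2.36 to 4.45 times. Myh1 rose (2.07, adjusted p 0.0160) and Acta1 differed by 0.13, while Myh2, also called, was well above background on no control array and entered the test through the knockouts alone. The part of these markers in the collagen values was not tested.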

How the data were processed

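Colon RNA of 6 animals was hybridised to 1 array each. Feature Extraction wrote the files, in version 11.5.1.1 per the file headers and 10.7 per the submitters' processing notes. The labels name Cy3 and a green signal, but the red channel alone is in the files and was used. The deposited processed signal is an intensity, detrended and background-subtracted and left unscaled across arrays, per the file headers. The deposited value table, also an intensity, matched those signals (log2 correlation of at least 0.999999) and was an alternative.

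Here log2 signals were centred on each array's 75th percentile, and spots marked as outliers were set to missing. A probe was tested when all 3 arrays of a group were well above background and each group had at least 2 usable values (35351 of 56605 probes). limma 3.58.1 (lmFit, eBayes; R 4.3.3) compared the genotypes, and p-values were adjusted by Benjamini-Hochberg over every tested probe, at 5%. Having 3 arrays in a group limits the precision. A gene is represented by its tested probe with the highest mean. A summed level adds the linear scaled signals of the brightest probe of each listed gene, outlier spots kept. On simulated data for this comparison (35351 probes), 91.1% of changes of at least 2 on the log2 scale and 22.2% of changes of 1 were recovered, and 5 of 150 calls were false. The simulation changed 200 probes and drew independent normal noise of equal spread in both groups, so its rates need not hold for the measured arrays. Names came from RefSeq accessions (GRCm38.p6).

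Values on every array are given for called collagens, fibrillar and basement membrane members well above background on all arrays, and the 2 highest and 2 lowest FACIT and other members. Of the pathway and marker lists, called genes and the first 2 markers were to be named, of which Cdh5, Epcam and Acan could not be tested and 1 is not reported here. Other members and list genes were named after their values were seen. The members and lists were chosen with earlier results of these data known. Alternatives changed the handling of outlier spots, scaling, background correction, filter, array weights, source table, probe rule and set of arrays. Normexp on the spot median was chosen after seeing the data, because normexp on the spot mean could not be run on these files.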

Additional observations from a re-analysis of the deposited data

How the results depend on the processing

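All values are limma fits. The 3 collagen genes and 3 probes called became 7 genes and 9 probes under median centring, the same numbers under normexp (7 and 9), 14 and 16 when arrays were weighted and 1 and 1 with no filter on dim probes. Quantile normalization of the processed signal called 6 probes. When arrays were weighted, 2 of the 14 genes were higher. Leaving out 1 array gave 0 to 5 probes and 0 to 4 genes. Where the count was 0, 11 to 16 genes had an unadjusted limma p under 0.05 in either direction. With all 6 arrays 4637 of all 16451 tested genes did. The 9 machinery genes called became 15 under quantile normalization, 15 under normexp, 27 with weights and 3 with no filter, and 0 to 7 with an array left out. The median of basement membrane collagens was -0.49 with outlier spots kept, 0.41 with the filter on all 6 arrays and -0.59 to 0.24 with an array left out. That of FACIT collagens was 0.021 under normexp, 0.020 with no filter, 0.020 with the filter on all 6 arrays, 0.079 with weights, and -0.076 to 0.17 with an array left out. That of other collagens was -1.45 to -0.69 with an array left out. Of 549 values of single genes, 501 kept direction and side of the threshold, 12 lost and 21 gained a call, and 15 changed sign. Those that changed sign were Col1a2 (0.027), Col9a3 (-0.084), Col12a1 (0.056) and Col14a1 (0.35) with weights, Col4a5 with outlier spots kept (-0.081), and Col24a1 (-0.55), Col22a1 (-0.64) and Col26a1 (0.066) with the mean of all probes. With an array left out, Col9a3 ranged from -0.21 to 0.17, Col12a1 from -0.24 to 0.065, Col14a1 from -0.83 to 0.44 and Col26a1 from -0.41 to 0.052. The causes were not tested. No paired analysis was possible because the replicate numbers only name the animals.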
